A study of Homo sapiens with 6 samples.

Results

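The GADD45 family consists of 3 closely related stress sensor genes, GADD45A, GADD45B and GADD45G, and its best known effector kinase is MAP3K4. These 4 genes were followed, out of 38637 genes in the deposited expression table, in sorafenib-resistant liver cancer cells with or without knockdown of the circular RNA cDCBLD2. They were picked by gene symbol with earlier results of these data known. GADD45G was picked for its change in this very comparison, so its values are described here without a test. GADD45A and GADD45B were taken as its paralogs and MAP3K4 as their shared kinase. All 4 genes averaged more than 1 TPM (transcripts per 1000000, a level corrected for transcript length and library size) in both groups, which placed them among the 13980 genes tested.

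HCCLM3-SR is a human hepatocellular carcinoma cell line made resistant to sorafenib, a multikinase inhibitor used against advanced liver cancer. The 3 knockdown libraries came from cells transfected with si-cDCBLD2 and the 3 control libraries from cells transfected with siCTRL, both for 3 days. Both groups were kept in 5 µM sorafenib throughout, so the comparison holds the drug constant and has no drug-free arm. Total RNA was sequenced as polyA-selected libraries. The labels do not say whether the replicates were separate cultures, and p-values then measure only the spread between these libraries. The design has 1 cell line, and in bulk RNA fewer cells of a type and less RNA per cell cannot be told apart.

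The GADD45 proteins are small, acidic, mostly nuclear proteins without enzyme activity, whose messages are induced by DNA damage, growth arrest, cytokines and other stress. They act by binding partners: the proliferating cell nuclear antigen PCNA, the cyclin-dependent kinase inhibitor p21 and the CDK1-cyclin B1 complex, through which they slow the cell cycle at the G2/M boundary. All of them can also bind MAP3K4 (also called MTK1 or MEKK4) and release its autoinhibition, after which it phosphorylates the kinases that switch on p38 and JNK. Expression of GADD45 genes is often low in hepatocellular carcinoma, where loss of GADD45G and GADD45B has been described.

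The genes differ in size and base composition. In GENCODE 29 on GRCh38, all 4 lie on the plus strand. GADD45A occupies chr1:67685061-67688338 and its transcript of 1496 bases encodes 165 amino acids. GADD45B lies at chr19:2476122-2478259, with a transcript of 1373 bases and 160 amino acids. GADD45G, the smallest, lies at chr9:89605013-89606555, with a transcript of 1065 bases and 159 amino acids. MAP3K4 spans chr6:160991727-161117385, and its transcript of 5490 bases encodes 1608 amino acids. The start of MAP3K4 overlaps the antisense gene AL139393.2, which is annotated on the opposite strand at chr6:160990318-160992342 and has no row of its own in the expression table. The library kit does not mark strand and the strand setting of the counting is not given in the sources used here, so reads from the 2 genes cannot be told apart where they overlap.

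The study examined cDCBLD2 as a sponge of the microRNA miR-345-5p and looked at sites in coding sequence, so the seed of that microRNA was searched in the transcripts of the members. The mature sequence is shown because its seed, bases 2 to 8 in capitals, defines the match that was searched. It is taken from RefSeq on GRCh38.p14, where it lies at chr14:100307876-100307897 on the plus strand.
miR-345-5p: gCUGACUCcuaguccagggcuc
The 7 bases complementary to the seed, GAGTCAG, occurred once in the coding sequence of GADD45A, GADD45G and MAP3K4 and nowhere in the transcript of GADD45B. The matches are shown in capitals within 30 bases of coding sequence, 5′ to 3′.
GADD45A: cagcaaagccctGAGTCAGcgcacgatcac
GADD45G: gccggcgtctacGAGTCAGccaaagtcttg
MAP3K4: gaacccgagaccGAGTCAGaacccgagtgc
The GADD45A match lies in exon 2 of 4 at chr1:67686073-67686079, the GADD45G match in exon 2 of 4 at chr9:89605511-89605517, and the MAP3K4 match in exon 1 of 27 at chr6:160992052-160992058. The GADD45A and GADD45G matches fall at different positions of their transcripts, 527 to 533 and 242 to 248, counted from the 5′ end. Such a match is common, since 12.8% of 11793 tested coding genes held it in their coding sequence and 11.0% in the 3′ UTR. Over all tested coding genes, the median log2 fold change was -0.13 with a coding match and -0.08 without. These letters are a description and not evidence of binding.

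The start regions of 3 of the 4 members could be read from the RefSeq promoter table, which covers 250 bases before to 50 bases after each start (GRCh38.p14). The promoter windows were searched on both strands for the CCAAT box read by NF-Y, the octamer ATTTGCAT, the AP-1 motif TGANTCA, the CRE TGACGTCA, the ATF4-CHOP composite TGATGNAAT and the EGR1 motif GCGNGGGCG. Windows of 30 bases around the hits are shown, since GADD45B and GADD45G, but not MAP3K4, held a CCAAT box close to the start. The motif is in capitals.
GADD45B, CCAAT box 82 bases before the start: cttgtctttccaCCAATaggaggggcgaat
GADD45B, CCAAT box 45 bases before the start: ctgaggccacgcCCAATgttcaagtctata
GADD45B, EGR1 motif on the minus strand 159 bases before the start: ccacgtggggCGCCCCCGCacgccgctcct
GADD45G, CCAAT box 79 bases before the start: agcgggtgccggCCAATaggcgcgcagcct
The windows lie at chr19:2476033-2476062, chr19:2476070-2476099, chr19:2475958-2475987 and chr9:89604921-89604950, and all are written on the plus strand. A CCAAT box was present in 34.6% of 35116 promoters of the same length and the EGR1 motif in 9.43%. The other motifs, found in 1.77% (octamer), 7.71% (AP-1), 1.85% (CRE) and 0.991% (ATF4-CHOP) of promoters, gave no match in these 3 windows, and no motif matched the MAP3K4 window. The 3 promoters were rich in G and C, with 62.7% and 25 CpG pairs for GADD45G, 61.7% and 27 for GADD45B, and 78.0% and 48 for MAP3K4, against medians of 58.7% and 14 over all promoters.

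Before the members are described, a few facts of the whole series are needed. Reads per gene were recovered from the TPM values as lower bounds and summed to between 17489570 and 23059351 per library, with the lowest totals in replicate 1 of each group. The labels number the replicates 1 to 3 in both groups, and libraries with the same number deviated together from their group means (correlations of 0.560, 0.343 and 0.362 over 13980 genes). Each member is therefore also given with the replicate number as a block. Deviations within a group sum to 0, so the 3 correlations are not independent of each other, and a difference shared by replicate 1 alone would raise all of them. The fit without the block called 123 of 13980 genes at an adjusted p under 0.05 (limma with Benjamini-Hochberg adjustment), and the fit with the block called 4891. On simulated data the fit with the block made more false calls than its threshold allows, a limit on every call given with the block. DCBLD2, the linear host gene of the circular RNA, was at 58.1, 25.9 and 31.6 TPM in the knockdown libraries and at 71.5, 48.5 and 50.7 TPM in the controls. Its gene-level value does not separate the circle from the linear message and so does not check the knockdown (adjusted p = 0.253, or 0.0139 with the block). The cell identity was only partly visible in its markers. KRT8 and KRT18 averaged 3533 and 2132 TPM and HNF4A 26.2 TPM, whereas ALB, TTR and APOA1 were under 1 TPM and AFP was at 1.25 TPM. Of 5 markers each, the leukocyte genes CD3E, PTPRC and CD14 were at 0, 0.355 and 0.724 TPM but LYZ was at 3.93 TPM and the lysosomal macrophage marker CD68 at 107 TPM, and the endothelial genes other than PECAM1 were below 0.1 TPM. The summed fibroblast markers, mostly COL1A1, reached 5.61 to 17.9 TPM in the knockdown libraries and 1.91 to 4.28 TPM in the controls, with 2 of 5 genes at 1 TPM or above and DCN and PDGFRB at 0.153 and 0.117 TPM. The summed liver markers, mostly keratins, were 5840 to 7009 TPM against 4830 to 5649 TPM. Single liver markers went both ways. ALB (0.607 against 1.11 TPM), APOB (1.64 against 3.44 TPM) and EPCAM had lower means in the knockdown, and the other liver markers had higher means. Neither sum overlapped between the groups, where 31.9% of single tested genes did not overlap either. The part of these cell type signals in the members' values was not tested.

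GADD45G was the least abundant paralog and had the largest fold change of the family. It is the member most often described as silenced in liver cancer, and forced expression of it is known to arrest or senesce tumour cells. Its level was 22.1, 19.8 and 21.5 TPM in knockdown replicates 1 to 3, and 8.87, 10.3 and 9.46 TPM in the controls. All 3 knockdown libraries lay above all 3 controls, and the values within a group spread little. The group means were 21.1 ± 1.22 and 9.53 ± 0.691 TPM (SD, n = 3 each), a ratio of 2.22. On the log2(TPM + 1) scale the difference was 1.07 (SE 0.095), the 83rd highest of the 13980 genes tested, and the same-numbered pairs differed by 1.23, 0.88 and 1.10. The rule used this change, so no test is attached to it. The values rested on 164, 199 and 201 reads in the knockdown and 64, 88 and 81 reads in the control libraries. The counting error of the thinnest library, control 1, spanned 6.83 to 11.3 TPM (exact Poisson 95% interval, counting error only). The recovered reads are lower bounds, so the true interval may be narrower.

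**Figure D1:**
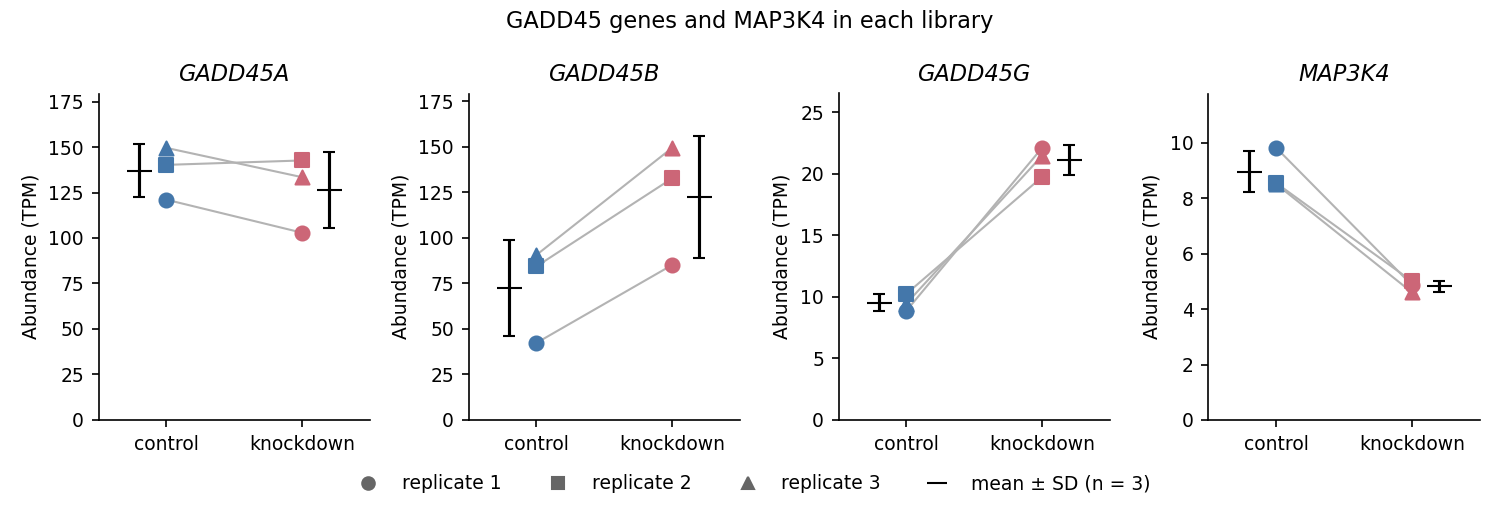
Level in TPM (y axis, from 0, own scale per panel) of GADD45A, GADD45B, GADD45G and MAP3K4 in each of the 3 control and 3 knockdown libraries, with replicate numbers joined by lines and bars for the group mean and SD. GADD45G lies at 19.8 to 22.1 TPM after knockdown and 8.87 to 10.3 TPM in controls, MAP3K4 at 4.61 to 5.01 and 8.51 to 9.82 TPM, and the groups overlap for GADD45A and GADD45B.

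GADD45B was higher in the knockdown library of every pair, but the groups overlapped. It is the family member best known as an early target of NF-κB and TGF-β signalling, and it can also restrain JNK by blocking the kinase MAP2K7. GADD45B was at 85.0, 133 and 149 TPM in knockdown replicates 1 to 3 and at 42.3, 84.3 and 90.6 TPM in the controls. Replicate 1 was the lowest library of both groups, and the groups overlapped because knockdown replicate 1 lay below control replicate 3. The means were 122 ± 33.3 and 72.4 ± 26.2 TPM (SD, n = 3 each), a ratio of 1.69. The log2 difference of 0.78 (SE 0.34, 95% confidence interval -0.02 to 1.59) did not pass the test (adjusted p = 0.199), and the two-sided exact permutation p was 0.2.

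Within pairs, GADD45B differed by 0.99, 0.65 and 0.72 on the log2 scale, all in 1 direction. With the replicate block its SE fell to 0.075, the interval became 0.60 to 0.97 and the call was made (adjusted p = 0.00462). The block called 9.94% of all genes as higher and 35.0% in either direction, so such a call was frequent. Without replicate 1 of both groups, an alternative added after seeing the data, the difference was 0.68 (adjusted p = 0.00571, 2 against 2 libraries). That fit called 1353 of 13980 genes higher and 3538 lower. Each library held 459 to 2103 reads of GADD45B.

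GADD45A, the founder of the family, showed no difference larger than the spread between replicates. It is the member known to bind PCNA and CDK1 in the G2/M checkpoint and to be induced by genotoxic drugs. Its level was 103, 143 and 133 TPM in the knockdown libraries and 121, 140 and 150 TPM in the controls. The groups overlapped throughout, and replicate 1 was again the lowest library of each group. The means were 126 ± 20.8 and 137 ± 14.5 TPM (SD, n = 3 each), with a log2 difference of -0.12 (SE 0.14, 95% confidence interval -0.46 to 0.22, adjusted p = 0.611 and 0.165 with the block). The two-sided exact permutation p was 0.6. The interval leaves room for changes of either sign.

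Because TPM is corrected for length, the 3 paralogs can be set side by side within a library, and their shares do not depend on how libraries are scaled. The shares, and the ratio of GADD45B to GADD45A below, were not corrected for GC content. It differs between GADD45A, GADD45B and GADD45G (51.5%, 57.4% and 63.9%), and log2 differences rose with it over all genes, as described below. The part of base composition in the shares was not tested. In the controls GADD45A made up 70.3%, 59.7% and 59.9% of the summed GADD45 level, and in the knockdown 49.0%, 48.4% and 43.9%. GADD45B made up 24.6%, 35.9% and 36.3% in the controls and 40.5%, 44.9% and 49.1% in the knockdown. GADD45G made up 5.15%, 4.37% and 3.79% in the controls and 10.5%, 6.70% and 7.06% in the knockdown. None of the 3 shares overlapped between the groups, and since shares of a whole are tied to each other, these are not separate findings. GADD45G, picked for its change, enters each share, so the separation is no test. The levels of GADD45A itself overlapped. Among single tested genes 31.9% did not overlap, and no such background was computed for shares. The order of levels was GADD45A, GADD45B, GADD45G in every library except knockdown replicate 3, where GADD45B at 149 TPM stood above GADD45A at 133 TPM.

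The ratio of GADD45B to GADD45A was 0.349, 0.601 and 0.606 in the controls and 0.826, 0.930 and 1.12 in the knockdown. The means were 0.519 ± 0.147 and 0.958 ± 0.149 (SD, n = 3 each), so in the knockdown the levels of the 2 paralogs were within their spread of each other, while in the controls GADD45A was the higher in each library. The 3 paralogs together summed to 172, 235 and 250 TPM in the controls and 210, 295 and 304 TPM in the knockdown. These sums overlapped between the groups, with means of 219 ± 41.0 and 270 ± 51.9 TPM.

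**Figure D2:**
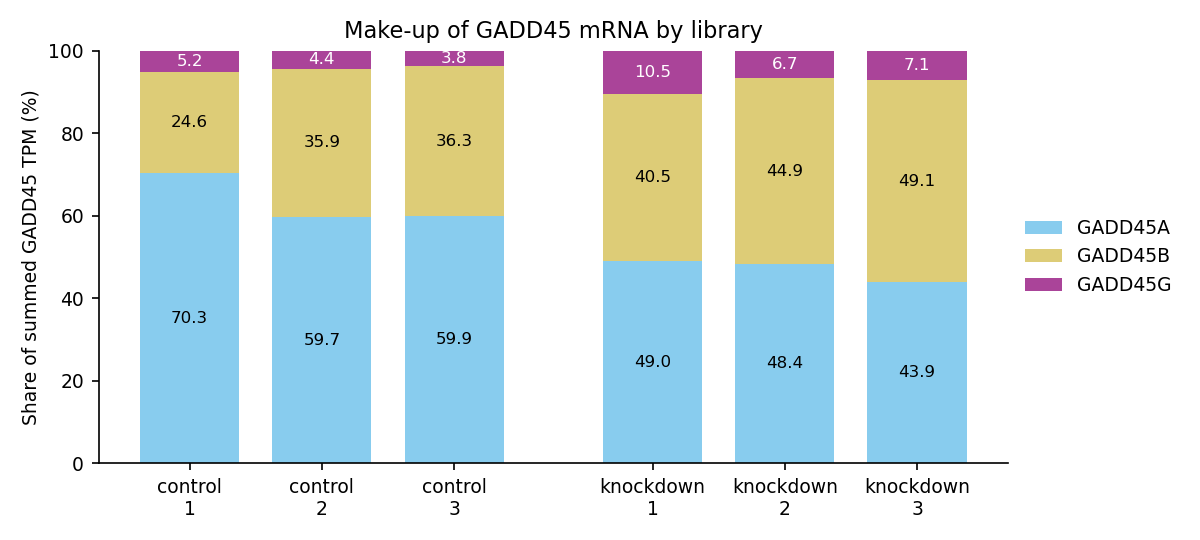
Share of the summed GADD45 TPM (y axis, percent, from 0 to 100) taken by GADD45A, GADD45B and GADD45G in each of the 6 libraries (x axis). GADD45G takes 6.70% to 10.5% after knockdown and 3.79% to 5.15% in controls, and GADD45A 43.9% to 49.0% and 59.7% to 70.3%.

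MAP3K4, the kinase that GADD45 proteins open, was lower after knockdown. Its level was 4.87, 5.01 and 4.61 TPM in the knockdown libraries and 9.82, 8.55 and 8.51 TPM in the controls. The groups did not overlap, and the knockdown libraries were close to each other. The means were 4.83 ± 0.204 and 8.96 ± 0.745 TPM (SD, n = 3 each), a ratio of 0.539. MAP3K4 fell by 0.77 on the log2 scale (SE 0.11, 95% confidence interval -1.03 to -0.52, adjusted p = 0.0451, and 0.00587 with the block), and by 0.88, 0.67 and 0.76 in the 3 pairs. The two-sided exact permutation p was 0.1, the smallest that 3 against 3 libraries can give. It rested on 211, 295 and 252 reads in the knockdown and 414, 429 and 426 in the controls.

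The call for MAP3K4 was near the threshold and many genes moved further. It had the 468th lowest log2 difference of the 13980 tested, and 0.629% of all genes were called lower without the block, 25.0% with it. In 22.3% of all genes the knockdown libraries lay entirely below the controls, in 9.58% entirely above, and in 31.9% one or the other. Of the 3 members other than GADD45G, 1 passed an adjusted p under 0.05 without the block, where 0.880% of all genes did, and 2 passed with the block, where 35.0% did. The members were chosen with such results known, so nothing is read from those counts. When any 1 library other than knockdown replicate 1 was left out, the adjusted p of MAP3K4 rose above 0.05, up to 0.222. No tested gene was called in those fits, so this loss is not particular to MAP3K4. Its log2 difference stayed between -0.80 and -0.71. Without knockdown replicate 1 its adjusted p was 0.0150, in a fit that called 649 genes higher and 2771 lower of the 13980 tested.

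**Figure D3:**
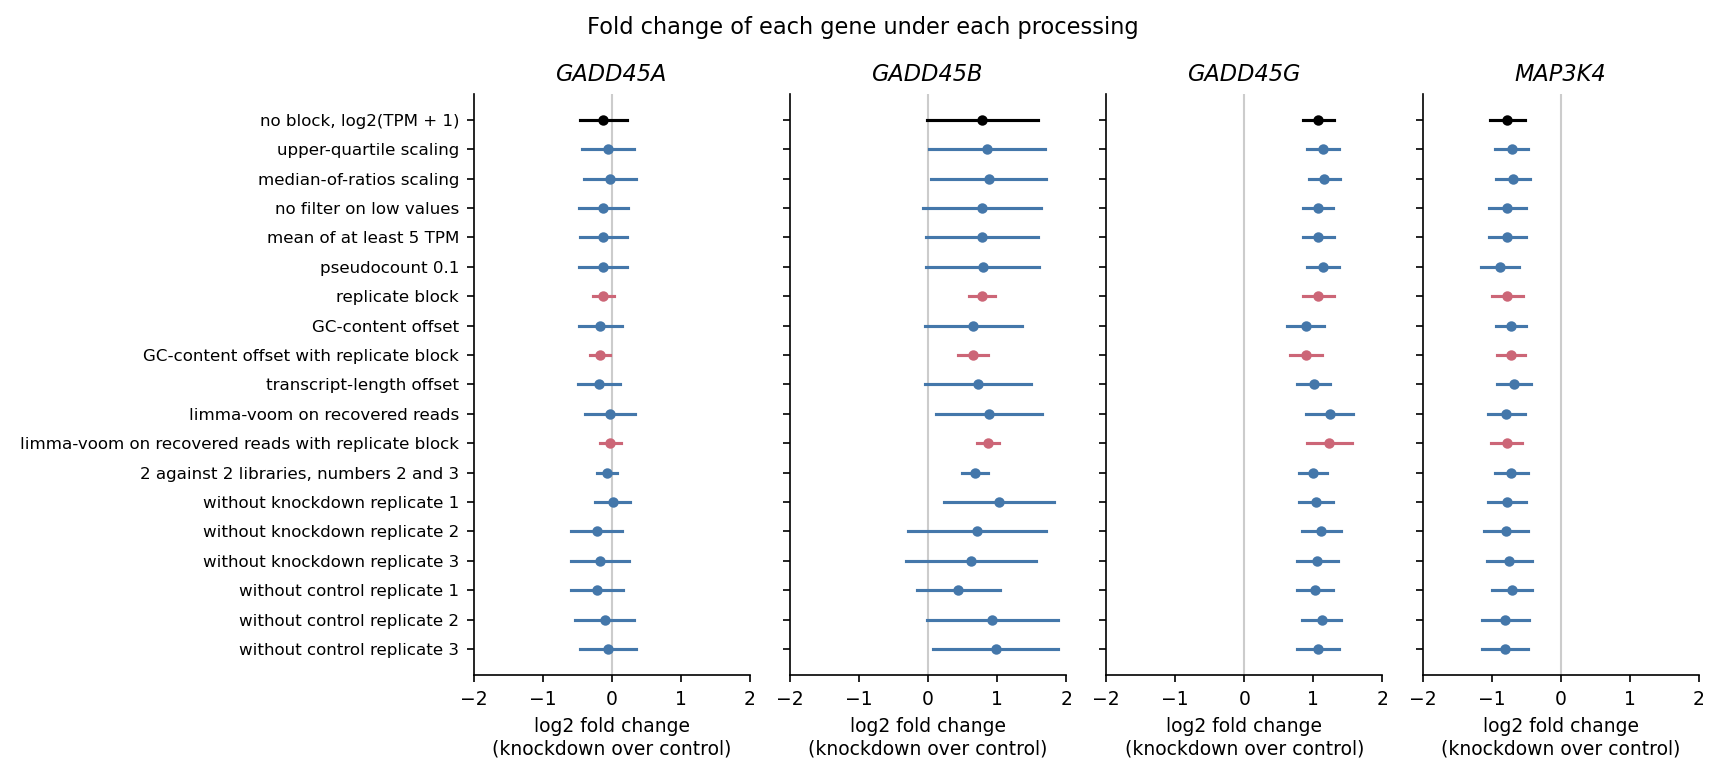
Log2 difference, knockdown minus control (x axis), of the 4 members in the reported fit and 18 alternative settings (y axis), with 95% confidence intervals of each fit. GADD45G was picked for its change in this comparison, so its intervals only describe the fits and are no test. GADD45G runs from 0.89 to 1.24, GADD45B from 0.44 to 1.02, MAP3K4 from -0.88 to -0.68 and GADD45A from -0.22 to 0.016.

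Base composition moved with the changes across the whole series. Over 12957 tested genes with a transcript in GENCODE 29, the log2 difference rose with the GC content of the transcript (Spearman's rho 0.648, across genes, which are not independent replicates and share the same 6 libraries). GADD45G has a GC content of 63.9%, above 93.3% of these genes, followed by 57.4% for GADD45B, 51.5% for GADD45A and 47.3% for MAP3K4. The order of the 4 members by GC content was also their order by log2 difference. When the trend was removed with an offset per gene, the GADD45G difference became 0.89. With the offset and the block together GADD45B was at 0.66 (adjusted p = 0.00719), beside 6.42% of genes called higher, 22.9% called lower and 29.3% in either direction in that fit. MAP3K4 stayed within -0.88 to -0.68 under every setting run. The part of base composition in the remaining differences was not tested.

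**Figure D4:**
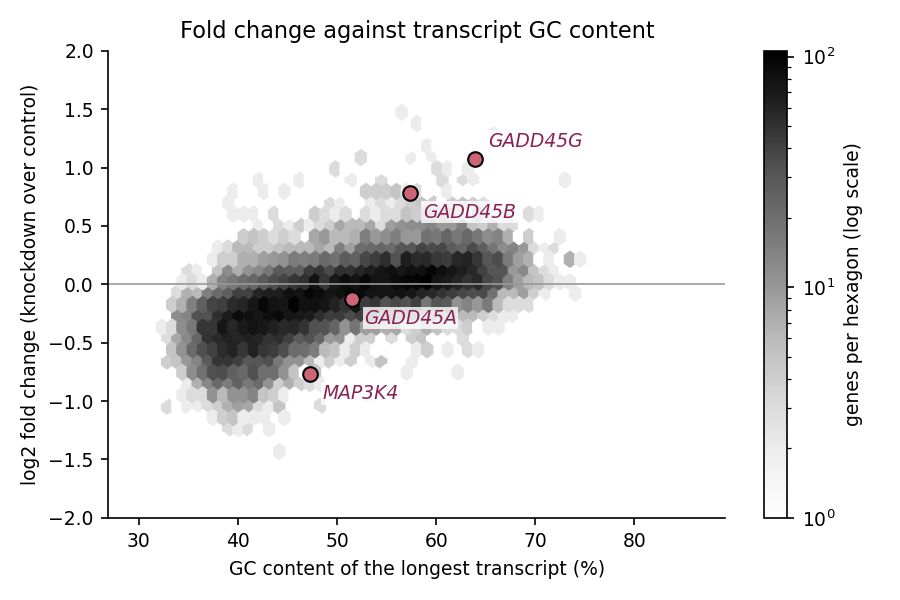
Log2 difference, knockdown minus control (y axis), against transcript GC content in percent (x axis) for 12957 tested genes, with the 4 members marked, where 8 genes lie beyond the y axis. GADD45G lies at 63.9% GC and 1.07, GADD45B at 57.4% and 0.78, GADD45A at 51.5% and -0.12, and MAP3K4 at 47.3% and -0.77.

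The other genes of the pathway were followed in 7 lists of textbook members, also drawn up with earlier results known. Across the lists, 85 genes were tested. Without the block 1 passed as higher (CDKN1A) and 2 as lower (MAPK9 and MAP3K5), or 1.18% and 2.35% of them, beside 0.250% and 0.629% of all genes. With the block 13 rose and 22 fell, or 15.3% and 25.9%, beside 9.94% and 25.0% of all genes. The share that fell was close to that over all genes. Like MAP3K4, each of CDKN1A, MAPK9 and MAP3K5 stayed past the threshold only when knockdown replicate 1 was the library left out (adjusted p up to 0.222 otherwise). With any other library left out no tested gene was called, so this does not set these genes apart. Without the filter on low values CDKN1A (adjusted p = 0.0553) and MAPK9 (adjusted p = 0.0673) were not called either. The median log2 difference was -0.12 over the 85 genes and -0.08 over all genes.

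**Figure D5:**
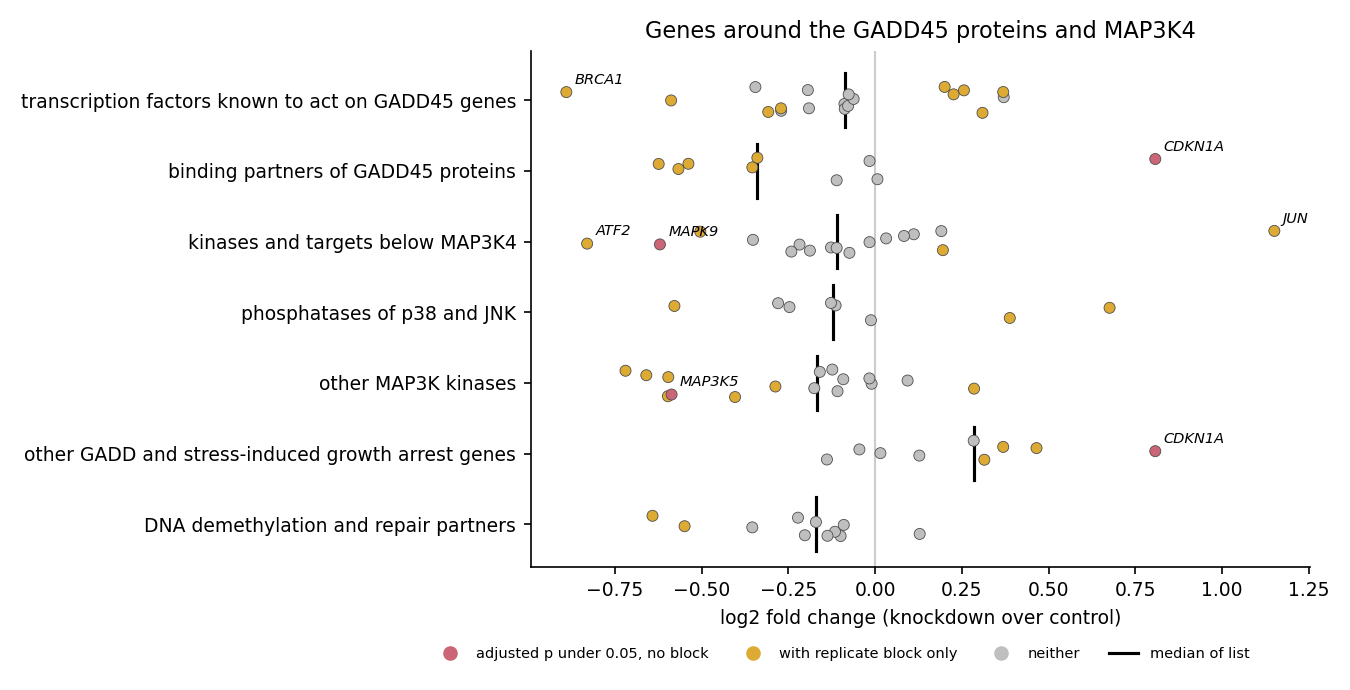
Log2 difference, knockdown minus control (x axis), for each tested gene of the 7 pathway lists (rows), with point colour for genes called without the block, only with it, or neither, and black bars for list medians. CDKN1A, at 0.81, was called higher, and MAPK9 and MAP3K5, at -0.62 and -0.59, were called lower without the block.

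The regulators that act on GADD45 genes split in direction. Of 19 tested transcription factors, 0 passed without the block, while with it 5 rose and 4 fell. These were 26.3% and 21.1%, beside 9.94% and 25.0% of all genes. The list median was -0.09, beside -0.08 over all genes. At an unadjusted p under 0.05 in limma 2 were higher and 4 lower, and limma-voom on recovered reads likewise called 0 without the block. DDIT3, the stress factor CHOP, was at 82.0 TPM against 64.6 TPM (log2 difference 0.37, adjusted p = 0.348, 0.0245 with the block). EGR1, an immediate early factor that activates GADD45 promoters, had a difference of 0.31 (adjusted p = 0.508, 0.0374 with the block), and its call was lost with the GC offset and the block (0.21, adjusted p = 0.106). On the lower side were BRCA1, a repair protein that also acts on the GADD45A promoter, at 6.13 against 12.3 TPM (-0.89, adjusted p = 0.153, 0.00463 with the block), and the octamer factor POU2F1 (-0.59, adjusted p = 0.115, 0.0172 with the block, and -0.38 with the GC offset).

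Among the partners that GADD45 proteins bind, CDKN1A stood apart from the cell cycle kinases. CDKN1A, the cyclin-dependent kinase inhibitor p21, was at 138, 137 and 152 TPM in the knockdown libraries and 78.3, 80.9 and 83.6 TPM in the controls. All knockdown libraries lay above all controls. CDKN1A rose by 0.81 on the log2 scale (142 ± 8.07 against 80.9 ± 2.63 TPM, adjusted p = 0.0444, and 0.00348 with the block). Of 9 tested partners, 5 fell with the block, or 55.6% beside 25.0% of all genes, among them the mitotic kinases CDK1, at 25.9 against 38.6 TPM (-0.57, adjusted p = 0.299, 0.00444 with the block), and AURKA, at 48.9 against 75.8 TPM (-0.62, adjusted p = 0.0892, 0.00444 with the block). With the GC offset and the block the CDK1 difference was -0.27 (adjusted p = 0.0379). The list held 7 negative and 2 positive differences.

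Below MAP3K4, the kinases and targets of the p38 and JNK branches did not move together. Of 17 tested, 1 fell without the block (5.88%, beside 0.629% of all genes). With it 2 rose and 3 fell, or 11.8% and 17.6%, beside 9.94% and 25.0% of all genes. MAPK9, the kinase JNK2, was at 16.0, 15.7 and 15.3 TPM in the knockdown libraries and 25.9, 23.0 and 25.2 TPM in the controls, without overlap. MAPK9 fell by 0.62 on the log2 scale (15.7 ± 0.339 against 24.7 ± 1.47 TPM, adjusted p = 0.0451, and 0.00503 with the block). JUN, the AP-1 subunit that JNK phosphorylates and that feeds back on its own promoter, had the largest positive difference of these lists.

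JUN was at 198, 92.6 and 122.5 TPM in knockdown replicates 1 to 3 and at 71.6, 49.4 and 56.5 TPM in the controls. Every knockdown library lay above every control, although replicate 1 was far above the rest of its group. The log2 difference of 1.15 did not pass without the block (138 ± 54.3 against 59.2 ± 11.4 TPM, adjusted p = 0.0835) and did with it (adjusted p = 0.00452). ATF2, a p38 and JNK substrate, fell by 0.83 with the block (adjusted p = 0.0996 without it, 0.0128 with it), and MAPKAPK3, a p38-activated kinase, had a difference of 0.20 (adjusted p = 0.362 and 0.0335). With the GC offset and the block ATF2 was at -0.53 (adjusted p = 0.0132), and the MAPKAPK3 call was lost (0.075, adjusted p = 0.301).

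Phosphatases that switch off p38 and JNK also went both ways. Of 8 tested, 0 passed in limma without the block (1 higher and 1 lower at an unadjusted p under 0.05, and 1 called higher by limma-voom on recovered reads). With it 2 rose and 1 fell, or 25% and 12.5%, beside 9.94% and 25.0% of all genes. DUSP8 was at 9.60 against 5.67 TPM (log2 difference 0.68, adjusted p = 0.0544, 0.00857 with the block) and DUSP1 had a difference of 0.39 (adjusted p = 0.289, 0.0441 with the block). The DUSP1 call was lost with the GC offset and the block (0.29, adjusted p = 0.120). DUSP16, a JNK-preferring phosphatase, was at 19.4 against 29.3 TPM (-0.58, adjusted p = 0.0885, 0.00521 with the block).

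MAP3K4 was compared with its relatives, the other kinases of the MAP3K tier. It ranked 12th of 18 by TPM in both groups, and it had the lowest log2 difference of the 17 tested. Of the 16 other tested MAP3K genes, 14 had negative and 2 had positive differences, or 87.5% negative beside 62.4% of all tested genes. Under median-of-ratios or upper-quartile scaling 12 were negative and 4 positive, where the median over all genes was 0.001 or -0.02. Among the alternatives that tested all 16, the negative ones ran from 10 (transcript-length offset) to 15 (GC offset). MAP3K5, the oxidative stress kinase ASK1, was at 9.37, 9.71 and 9.25 TPM in the knockdown libraries and 15.3, 14.5 and 14.3 TPM in the controls. MAP3K5 fell by 0.59 on the log2 scale (9.44 ± 0.240 against 14.7 ± 0.528 TPM, adjusted p = 0.0451, and 0.00630 with the block). This call was lost under upper-quartile scaling (adjusted p = 0.0515), median-of-ratios scaling (adjusted p = 0.0537), a transcript-length offset (adjusted p = 0.0514) and no filter on low values (adjusted p = 0.0765). Both groups of MAP3K5 were tight and did not overlap.

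With the block 7 of the 16 relatives fell and 1 rose, or 43.8% and 6.25%, beside 25.0% and 9.94% of all genes. MAP3K7, the TGF-β and cytokine activated kinase TAK1, was at 10.5 against 17.4 TPM (log2 difference -0.72, adjusted p = 0.122, 0.00935 with the block) and MAP3K2 had a difference of -0.66 (adjusted p = 0.170, 0.0133 with the block). MAP3K11, a mixed lineage kinase and the most abundant of the tier, was at 135 against 111 TPM (0.29, adjusted p = 0.0655, 0.00763 with the block). With the GC offset and the block MAP3K7 was at -0.45 and MAP3K2 at -0.33, both still called (adjusted p = 0.00967 and 0.0277), whereas the MAP3K11 call was lost (0.083, adjusted p = 0.309). The median of the 16 relatives was -0.17, a smaller difference than the -0.77 of MAP3K4. No test of MAP3K4 against its relatives was run.

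The remaining growth arrest genes and the DNA demethylation partners of GADD45A completed the pathway. Of 9 tested GADD and stress-induced growth arrest genes, which include CDKN1A and DDIT3, 7 had positive differences (77.8%, beside 37.6% of all tested genes). Their median was 0.28, and with the block 4 rose (44.4%, beside 9.94%). Without knockdown replicate 3 or without control replicate 1 the list held 5 positive and 4 negative differences, with a median of 0.06 in each case. The median was 0.17 with the GC offset and 0.38 under median-of-ratios scaling. With the GC offset and the block 4 of the 9 were called higher and 1 lower, beside 6.42% and 22.9% of all genes. SESN2, an ATF4 target that restrains mTORC1, had a difference of 0.46 (adjusted p = 0.279, 0.0125 with the block). Of 11 tested demethylation and repair genes, 10 had negative differences (90.9%, beside 62.4% of all tested genes) with a median of -0.17, beside -0.08 over all genes. Without the block 0 passed in limma (2 lower at an unadjusted p under 0.05), and 0 in limma-voom on recovered reads. With the block 2 of them fell, or 18.2%, beside 25.0% of all genes. These were the DNA glycosylase gene MBD4 (-0.55, adjusted p = 0.128, 0.0125 with the block) and the excision repair endonuclease gene ERCC4 (-0.64, adjusted p = 0.0981, 0.0120 with the block, and -0.40 with the GC offset).

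Genes whose pattern over the 6 libraries was most like that of each member were found by the root-mean-square difference of the centred log2(TPM + 1) values, where smaller is more alike. The 3 closest of all tested genes lie far below the median by the search itself, so the medians only give the scale. The pattern of GADD45G includes the change it was picked for. For GADD45G they were C11orf86 (0.0955), KCTD11 (0.108) and SYNPO (0.110), against a median of 0.610 over the tested genes. For GADD45B they were the uncharacterised loci LOC105379349 (0.0830) and LOC112268296 (0.0865) and the membrane protein gene TMEM45A (0.0985), against a median of 0.638. For GADD45A they were SERGEF (0.0269), GSTO2 (0.0330) and GNB1L (0.0332), against 0.262. For MAP3K4 they were CCDC117 (0.0496), the securin gene PTTG1 (0.0600) and the kinase gene HIPK1 (0.0649), against 0.387. No member was among the 3 genes most like another member.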

How the data were processed

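PolyA-seq libraries of HCCLM3-SR cells (3 cDCBLD2 knockdown, 3 control, all in 5 µM sorafenib) were compared by the group in the sample labels. The authors deposited TPM per gene, each library summing to 1000000. The submitters' processing notes name fastp 0.20.1, HISAT2 2.1.0, StringTie 2.0 and hg38, and the paper names DESeq2. The annotation, the strand setting and the counting step are not given in the sources used here.

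The values were analysed with limma 3.58.1 in R 4.3.3, as a trended fit to log2(TPM + 1), for 13980 genes averaging at least 1 TPM, with Benjamini-Hochberg adjustment over all of them and no covariate. Folds on this scale understate changes of low genes. Both fits were tested on simulated data, where the fit with the replicate block made more false calls than its threshold allows. For single genes, an exact permutation test (two-sided) was added.

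Reads were recovered from the ratios of a gene's TPM values between libraries. In 100% of 17285 genes above 0 in every library they came out whole within 0.02, against 1.91% when the library factors were shifted at random. The reads are lower bounds.

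Same-numbered replicates were taken as pairs because the deviations of each pair correlated above 0.1 (mean 0.422, and all 6 libraries correlated best with their own number). These correlations are not independent of each other. What a shared number means is not given in the labels.

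GC content, lengths and positions came from GENCODE 29 (25655 genes matched by symbol, 547 by synonym, 12435 unmatched), where the longest transcript stood for each gene in GC content. Motifs and the microRNA came from RefSeq tables (GRCh38.p14).

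The members and lists were chosen with earlier results of these data known. The genes named were the members, DCBLD2, every list gene called without the block, the 2 higher and 2 lower list genes with the largest differences among those called with it, and the 3 genes most like each member. Markers quoted for their level were named after their values were seen. The value of 1 further list gene is not reported here. Alternatives changed the scaling, the low-value filter, the pseudocount, the block, a GC or length offset, the tool and the libraries used.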

Additional observations from a re-analysis of the deposited data

How the results depend on the processing

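Fold changes of the members kept their sign under all 18 alternatives except that of GADD45A. GADD45A was at 0.016 without knockdown replicate 1 and reached -0.22 otherwise. The block and the low-value filters leave a log2(TPM + 1) difference unchanged, so they could not reverse a sign. GADD45G was picked for its change, so its constant sign is no support. The counts of called genes depended strongly on the setting. The replicate block gave 1390 higher and 3501 lower genes, against 35 and 88 without it, and among the pathway lists 13 and 22, against 1 and 2. With the GC offset and the replicate block the counts were 832 and 2963, and 7 and 27 in the lists. The GC offset alone gave 293 lower genes. Upper-quartile scaling gave 59 higher genes and 1 lower list gene, and median-of-ratios scaling gave 79 higher, 55 lower and 1 lower list gene. Higher calls made up 28.5% of all calls as reported, 48.8% after upper-quartile and 59.0% after median-of-ratios scaling. No filter on low values left 3 higher and 1 lower gene, with 1220 and 2940 at an unadjusted p under 0.05 in limma, and 0 list genes in either direction (6 and 19 at an unadjusted p under 0.05), while a mean of at least 5 TPM gave 83 higher, 238 lower and 2 higher list genes.

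Alternatives added after seeing the data were limma-voom on recovered reads, a transcript-length offset and leaving out replicate 1 of both groups. Limma-voom called 193 genes higher and 259 lower, and 3 higher list genes. With the block it called 2627 and 3081, and 17 and 26 list genes. The length offset left 1 lower list gene. The 2 against 2 libraries gave 1353 and 3538, and 12 and 23 list genes. Leaving out 1 library at a time gave 0 to 649 higher and 0 to 2771 lower genes, and 0 to 5 and 0 to 20 list genes. All 4 counts were highest without knockdown replicate 1 and 0 without any other library, where 595 to 748 genes were higher and 1566 to 2169 lower at an unadjusted p under 0.05 in limma. The cause was not tested.

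GADD45B passed with the replicate block (0.78), with the GC offset and the block (0.66), with limma-voom and the block (0.87, adjusted p = 0.000117) and with 2 against 2 libraries (0.68), and ranged from 0.44 to 1.02 with 1 library left out. GADD45G was 1.16 after median-of-ratios scaling, 0.89 with the GC offset with and without the block, and 1.24 and 1.23 in limma-voom without and with the block. MAP3K4 no longer passed without the low-value filter (-0.77, adjusted p = 0.0816), and ranged from -0.80 to -0.71 with 1 library left out. GADD45A did not pass under any alternative (adjusted p 0.0831 to 0.945). The GADD45G share difference of 3.66 percentage points was only recomputed with 1 library left out. It then ran from 2.44 (without knockdown replicate 1) to 4.36 (without knockdown replicate 2), moving by less than the spread between replicates (pooled SD 1.57). Recovered reads of GADD45G, which are lower bounds, were under 100 in each control library. These few recovered reads limit GADD45G, and 3 libraries a group limit every value.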
